A study of Mus musculus with 4 samples.

Results

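The MEIS and PBX homeobox genes of the adult mouse heart were described through the H3K27ac peaks that lie around them. The set held 7 genes, namely Meis1, Meis2, Meis3, Pbx2, Pbx3, Pbx4 and Pknox1, out of 21938 protein-coding genes annotated in GENCODE release M21. Their peaks were all those of the replicated list that touched a member or its flanks of 50 kb on either side, which gave 81 of 63061 peaks. The genes were chosen by name, with earlier results of these data known, and the rule that picked them uses no peak value. H3K27ac is histone H3 acetylated at lysine 27, a mark carried by active promoters and active enhancers. It was measured by chromatin immunoprecipitation and sequencing in whole heart tissue of adult female B6CASTF1/J mice, 2 months old, which are F1 hybrids between the strains C57BL/6J and CAST/EiJ. All 4 libraries belonged to 1 group, with 2 biological replicates of 2 technical replicates each, and each biological replicate was a pool of 2 heart samples. There was no second condition, genotype or treatment, so nothing was compared between groups of samples and no test between conditions could be made. Both pools carried the same donor label, so their spread may be technical.

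These proteins are TALE homeodomain factors, which carry extra residues in a loop of the DNA-binding domain. MEIS proteins and PKNOX1 bind PBX proteins through a conserved region outside the homeodomain, and the pairs join HOX and other factors on DNA. MEIS partners also help to hold PBX proteins in the nucleus. In the mouse heart, Meis1 is known for restraining the cell cycle of cardiomyocytes after birth, through inhibitors of cyclin-dependent kinases, and Meis2 is known for its need in the outflow tract.

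Acetylated promoters were found at 6 of the 7 genes, and at Pbx4 there was none. A promoter peak is here a peak within 1 kb of any annotated transcription start site (TSS) of a gene. Of all protein-coding genes, 56.8% had such a peak in the same list. The same 6 members also had a peak within 1 kb of the 5′ end of the gene itself, against 53.3% of all protein-coding genes. In the lists of both single replicates 6 of the 7 members had a promoter peak, against 55.0% of all protein-coding genes. At least 1 peak lay within 50 kb of every one of the 7 members and of 78.4% of all protein-coding genes.

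The sequences below show what lay at these promoters and at the strongest distal peaks of the MEIS genes. They are the letters of the mouse reference genome, GRCm38 (mm10), which come from C57BL/6J, so CAST/EiJ alleles are not shown. Capitals mark every match, on either strand, to 13 short consensus words for binding factors, spelled out with their frequencies further down. Promoters are those of RefSeq on GRCm38.p6, 300 bases across the start, written along the gene, and 5 of the 7 members matched an entry. Under peaks of the replicated list lay all 300 bases of the Meis1, Meis2 and Meis3 promoters, 209 bases of the Pbx2 promoter and 0 bases of the Pbx4 promoter. They stand at chr11:19018920-19019219 on the minus strand for Meis1, chr2:116064570-116064869 on the minus strand for Meis2, chr7:16175145-16175444 on the plus strand for Meis3, chr17:34592009-34592308 on the plus strand for Pbx2 and chr8:69832374-69832673 on the plus strand for Pbx4.
Meis1 promoter: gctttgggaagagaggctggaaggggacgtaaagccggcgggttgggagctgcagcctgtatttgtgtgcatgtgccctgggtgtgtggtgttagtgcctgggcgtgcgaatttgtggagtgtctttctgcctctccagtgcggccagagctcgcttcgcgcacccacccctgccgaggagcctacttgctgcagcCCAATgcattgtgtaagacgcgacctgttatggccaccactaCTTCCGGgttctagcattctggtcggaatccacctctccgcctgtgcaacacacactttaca
Meis2 promoter: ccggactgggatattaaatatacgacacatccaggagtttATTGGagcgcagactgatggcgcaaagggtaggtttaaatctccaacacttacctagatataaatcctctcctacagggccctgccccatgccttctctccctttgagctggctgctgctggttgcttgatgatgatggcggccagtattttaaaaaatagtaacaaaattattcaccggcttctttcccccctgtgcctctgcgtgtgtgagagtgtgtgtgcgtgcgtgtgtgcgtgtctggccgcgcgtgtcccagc
Meis3 promoter: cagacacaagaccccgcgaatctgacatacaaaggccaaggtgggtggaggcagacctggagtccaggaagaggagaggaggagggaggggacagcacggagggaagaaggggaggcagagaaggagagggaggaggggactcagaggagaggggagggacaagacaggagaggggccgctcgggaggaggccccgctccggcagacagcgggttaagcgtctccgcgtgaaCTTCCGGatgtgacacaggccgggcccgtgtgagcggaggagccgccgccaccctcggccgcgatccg
Pbx2 promoter: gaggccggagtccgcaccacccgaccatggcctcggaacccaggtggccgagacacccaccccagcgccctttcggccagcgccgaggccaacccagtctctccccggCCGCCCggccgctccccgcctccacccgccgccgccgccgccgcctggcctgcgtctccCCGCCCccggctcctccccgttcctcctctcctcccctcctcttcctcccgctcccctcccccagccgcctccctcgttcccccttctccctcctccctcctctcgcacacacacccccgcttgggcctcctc
Pbx4 promoter: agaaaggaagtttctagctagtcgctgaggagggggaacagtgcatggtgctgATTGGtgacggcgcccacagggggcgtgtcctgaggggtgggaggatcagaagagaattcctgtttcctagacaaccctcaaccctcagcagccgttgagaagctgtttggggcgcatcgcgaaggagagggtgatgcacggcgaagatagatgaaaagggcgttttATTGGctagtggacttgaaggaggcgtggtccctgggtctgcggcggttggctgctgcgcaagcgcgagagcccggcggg
The GC content was 76.0% in the Pbx2 promoter, 66.7% in that of Meis3, 59.3% in that of Pbx4, 58.3% in that of Meis1 and 51.0% in that of Meis2, against a median of 52.7% over 32851 RefSeq promoters. The ratio of observed to expected CpG was 0.882 in the Pbx2 promoter, 0.799 in the Pbx4 promoter, 0.688 in that of Meis3, 0.666 in that of Meis2 and 0.589 in that of Meis1, against a median of 0.384 over all promoters. The Pbx4 promoter, which had no peak, thus stood among the others in both measures.

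The distal sequences are the 150 bases around the summits of peaks more than 2.5 kb from any TSS, on the plus strand. For Meis1 they are the strongest peak in intron 7, the next strongest of that intron and a peak in intron 8. They stand at chr11:18947986-18948135, chr11:18958096-18958245 and chr11:18927647-18927796. The peak labelled neighbour lay 60.8 kb from the 5′ end and the strongest 70.9 kb, with weaker peaks between them. For Meis2 they are the strongest distal peaks of intron 6 and intron 7, at chr2:116052941-116053090 and chr2:116023146-116023295, and for Meis3 the strongest distal peak of its window, at chr7:16156425-16156574.
Meis1 intron 7, strongest: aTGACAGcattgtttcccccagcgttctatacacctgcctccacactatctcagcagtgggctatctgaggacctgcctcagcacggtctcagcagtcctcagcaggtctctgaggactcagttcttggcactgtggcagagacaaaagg
Meis1 intron 7, neighbour: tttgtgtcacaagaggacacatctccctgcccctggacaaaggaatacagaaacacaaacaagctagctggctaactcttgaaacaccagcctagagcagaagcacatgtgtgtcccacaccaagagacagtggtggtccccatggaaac
Meis1 intron 8: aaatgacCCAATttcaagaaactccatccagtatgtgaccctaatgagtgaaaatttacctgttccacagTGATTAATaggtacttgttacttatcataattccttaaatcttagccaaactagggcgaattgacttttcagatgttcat
Meis2 intron 6: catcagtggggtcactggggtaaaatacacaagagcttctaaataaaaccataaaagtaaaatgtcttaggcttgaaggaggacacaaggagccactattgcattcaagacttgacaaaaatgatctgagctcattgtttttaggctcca
Meis2 intron 7: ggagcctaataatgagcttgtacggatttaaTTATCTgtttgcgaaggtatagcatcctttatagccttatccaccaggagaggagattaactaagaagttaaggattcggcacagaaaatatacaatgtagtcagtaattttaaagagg
Meis3 upstream: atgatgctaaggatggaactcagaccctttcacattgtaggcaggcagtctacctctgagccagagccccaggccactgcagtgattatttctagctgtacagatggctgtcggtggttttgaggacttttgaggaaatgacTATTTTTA
The strongest intronic Meis1 peak held the MEIS word TGACAG within these 150 bases, and the intron 8 peak held a form of the PBX-HOX word. A match is only a run of letters, and binding was not measured.

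Acetylated length, the number of kilobases covered by peaks within 50 kb of a gene, differed widely between the members. Meis1 had 28.4 kb in the replicated list, more than 96.8% of the 21938 protein-coding genes. Pbx2 followed with 22.4 kb, more than 93.9% of genes, and Meis2 with 17.3 kb, more than 88.5%. These 3 stood above the upper quartile of all genes, which was 10.6 kb. Longer genes have longer windows, and by the share of the window covered, given below, Meis2 did not reach the upper quartile. Pknox1 had 7.46 kb, Pbx4 5.73 kb, Meis3 5.68 kb and Pbx3 3.88 kb. The first of these 4 lay above 64.7% of all genes and the last above 47.4%, around a median of 4.32 kb over all genes. The median over the 7 members was 7.46 kb. In whole tissue, more acetylation per cell and more cells that carry it cannot be told apart.

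The replicates placed the members in nearly the same order. For Meis1 the covered length was 24.9 kb in the list of biological replicate 1 and 33.2 kb in that of replicate 2, with a mean of 29.0 ± 5.88 kb (SD, n = 2). Pbx2 had 20.2 and 24.8 kb, with a mean of 22.5 ± 3.24 kb, and Meis2 had 13.6 and 20.6 kb, with a mean of 17.1 ± 4.95 kb (SD, n = 2 each). Both genes of each neighbouring pair were read from the same list, so differences were taken within a list. Meis1 exceeded Pbx2 by 4.67 kb in replicate 1 and 8.40 kb in replicate 2, and Pbx2 exceeded Meis2 by 6.55 and 4.12 kb. Pknox1 had 6.16 and 9.86 kb (8.01 ± 2.62), Pbx4 4.35 and 8.42 kb (6.38 ± 2.87) and Meis3 4.14 and 8.55 kb (6.35 ± 3.12). Within the lists Pknox1 exceeded Pbx4 by 1.80 and 1.45 kb, with a mean difference of 1.63 ± 0.252 kb (SD, n = 2). Pbx4 minus Meis3 was 0.214 kb in replicate 1 and −0.138 kb in replicate 2, so these neighbours did not differ beyond their spread. Pbx3 had 3.61 and 4.03 kb (3.82 ± 0.296), and Meis3 exceeded it by 0.526 and 4.52 kb, a mean difference of 2.52 kb that is smaller than its SD of 2.83 kb (n = 2). The order was the same in the list of replicate 1, while in that of replicate 2 Meis3 stood before Pbx4. Every member was longer in replicate 2, from 1.12 times for Pbx3 to 2.07 times for Meis3, and the whole list of replicate 2 covered 1.49 times as much of the genome as that of replicate 1.

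**Figure D1:**
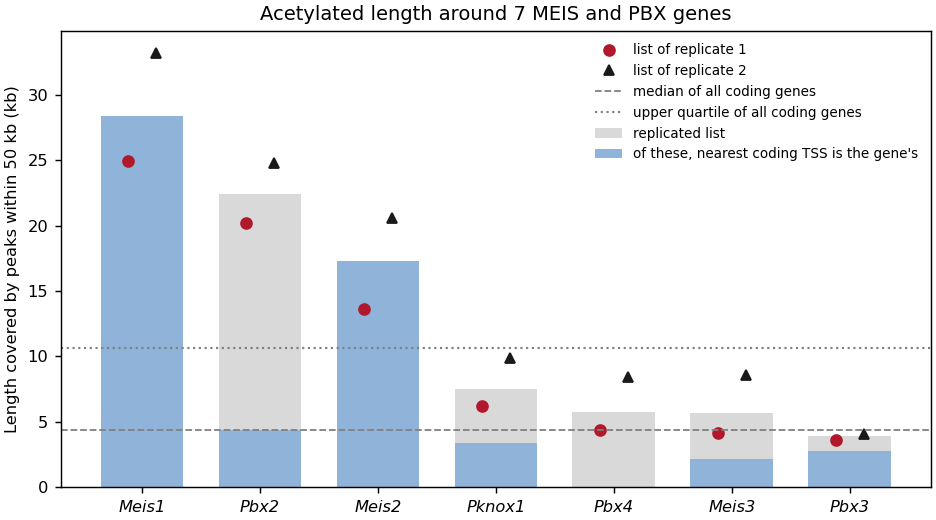
Length covered by H3K27ac peaks within 50 kb of each gene, in kb, for the 7 genes in order of the replicated list (bars, with the portion nearest to the gene's own TSS among coding genes in blue) and for the lists of replicate 1 (circles) and replicate 2 (triangles). Meis1 and Meis2 are blue over their whole 28.4 and 17.3 kb, whereas 4.34 of 22.4 kb is blue at Pbx2 and none at Pbx4; the dashed and dotted lines are the median of 4.32 kb and the upper quartile of 10.6 kb of all coding genes.

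How much of that length belonged by position to the member itself separated the genes again. When each peak was given to the protein-coding gene with the nearest TSS, Meis1 kept 15 of its 15 peaks and Meis2 17 of its 17, and no other protein-coding gene lay in either window. When the TSS of any annotated gene counted, non-coding ones included, Meis1 kept 3 of its 15 peaks and 9.57 kb and Meis2 14 of its 17 peaks and 15.1 kb. By the nearest protein-coding TSS, Pbx2 kept 2 of 18 peaks and 4.34 kb, Pknox1 4 of 11 peaks and 3.33 kb, Pbx3 3 of 4 peaks and 2.73 kb, and Meis3 4 of 9 peaks and 2.12 kb. Pbx4 kept none of 7 peaks. With the TSS of any gene, Pknox1 kept 1 peak of 0.996 kb and Pbx3 2 peaks of 2.23 kb, while Pbx2, Meis3 and Pbx4 kept the same lengths as before. The Pbx2 window held 10 other protein-coding genes, 9 of them with a promoter peak, and the Pbx4 window 9 others, 7 with a promoter peak. In the share of the window covered, Pbx2 led with 21.1%, above 96.9% of all genes, and Meis1 followed with 11.9%, above 86.1%. Meis2 had 5.72% of its 303 kb window covered, above 65.9% of genes and below the upper quartile of 7.92%. Pbx3, one of the longest members at 202 kb, had 1.29% of its window covered, above 33.6% of genes.

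**Figure D2:**
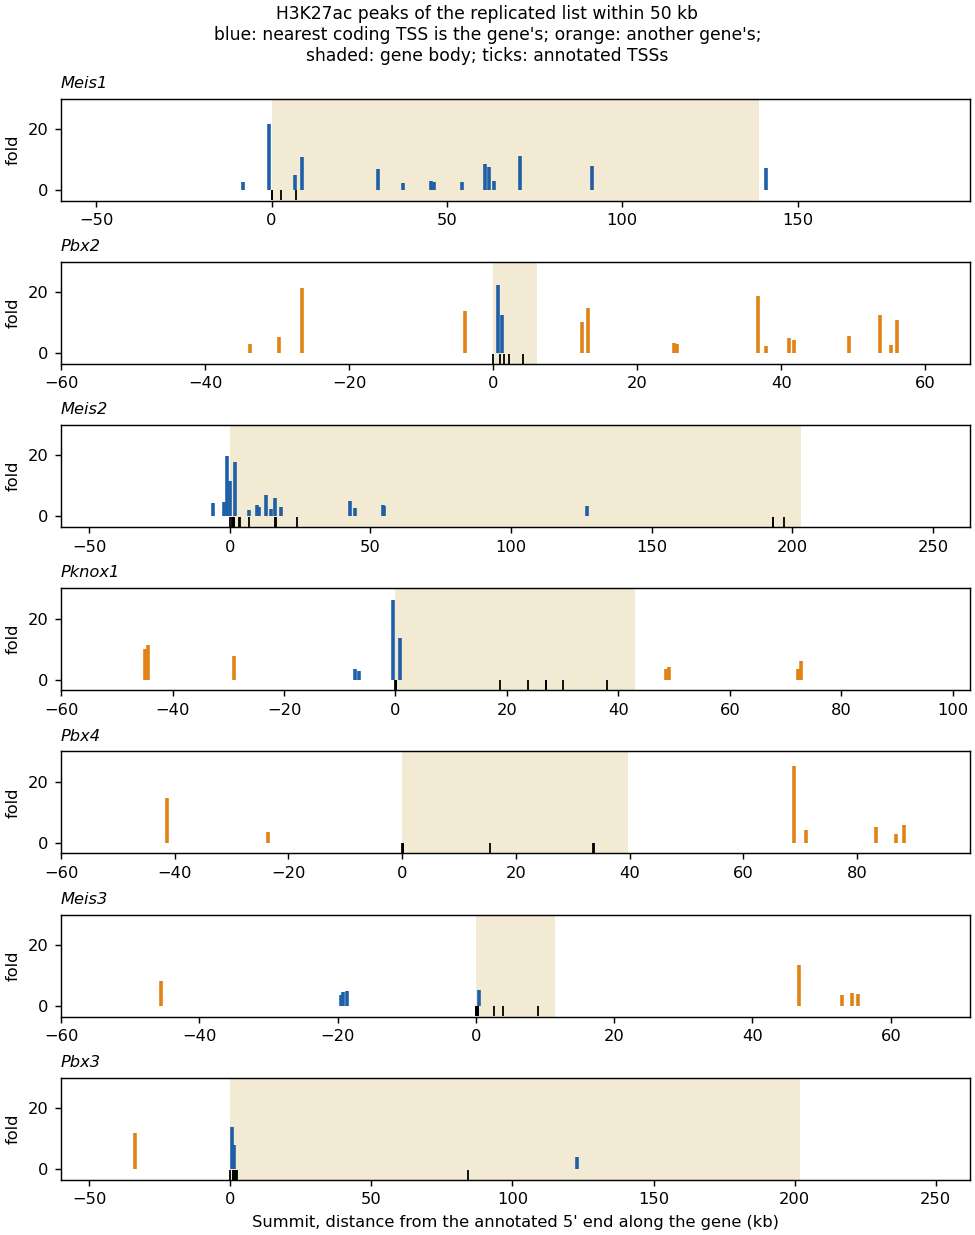
Maps of the 81 peaks of the replicated list in the 7 windows, each bar at the summit (distance in kb from the annotated 5′ end, in the direction of the gene) with the authors' fold as its height. Blue bars have the member's TSS as the nearest coding TSS and orange bars another gene's; shading is the gene, and ticks are its annotated TSSs. Meis1 and Meis2 show blue bars in introns, which at Meis2 lie up to 54.8 kb from the 5′ end and once more at 127 kb. Pbx2 and Pbx4 show mostly or wholly orange bars, and the shaded Pbx4 gene holds no bar.

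Meis1, the MEIS gene best known in heart muscle, lies at chr11:18879817-19018985 on the minus strand. Its promoter peak of highest fold was 8.65 kb wide, from 19012521 to 19021172, wider than 99.8% of all peaks of the replicated list. The authors' fold of this peak, read here as enrichment over control, was 21.79. Replicate 1 split the region into 3 peaks that summed to 8.28 kb, with a top fold of 15.03 in that list. Replicate 2 had 1 peak of 8.78 kb there, with a fold of 26.79. All 7 annotated Meis1 TSSs had a peak within 1 kb, in the replicated list and in the lists of both replicates.

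Inside the gene, 12 of the 15 Meis1 peaks had their summits in introns. A peak of 4.70 kb in intron 6, at 8.57 kb from the 5′ end, had a fold of 10.83. The start of the non-coding transcript Gm16140 lay inside it, and that of 2610001A08Rik within 1 kb of it. It also lay within 1 kb of the Meis1 TSS at 6.98 kb, so it counts as a promoter peak of Meis1. Intron 7 held the strongest distal Meis1 peak, 4.48 kb wide at 70.9 kb with a fold of 11.26, which was higher than in 95.5% of the 37273 distal peaks of the list. In that region replicate 1 had 1 peak of 4.32 kb with a fold of 9.82, and replicate 2 had 1 of 4.59 kb with a fold of 13.58. A pair of peaks in the same intron, at 60.8 and 61.9 kb, had folds of 8.48 and 7.39 and was 1 peak of 3.30 kb in replicate 2. Another in intron 8, at 91.3 kb, had a fold of 7.77. Of the 15 peaks 11 were found in both single-replicate lists. The 4 others had folds from 2.41 to 3.06, and 1 of these had a q above 0.05. The longest stretch without a peak in any of the lists ran for 48.7 kb, from 91.8 to 140.5 kb, over the 3′ end of the gene.

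Meis2, at chr2:115863064-116065839 on the minus strand, had its strongest peaks around its 5′ end and weaker ones further inside the gene. Its promoter peak of highest fold, 19.81, had its summit at −1.12 kb, where minus marks positions before the 5′ end. Replicate 1 gave 16.00 there and replicate 2 gave 24.16. The same peak touches the starts of 2 lincRNAs, G630016G05Rik on the opposite strand and 2700033N17Rik. The widest Meis2 peak spanned 4.19 kb around 1.76 kb into the gene and had a fold of 17.91, with 16.36 in replicate 1 and 20.54 in replicate 2. Of 16 annotated TSSs, 10 had a peak within 1 kb. The 6 without one lay 23.8 kb or more from the 5′ end, at 23.8, 193 and 197 kb, and had none in the list of either replicate. The strongest distal peaks were in intron 6 at 12.8 kb (fold 7.01), in intron 7 at 42.6 kb (fold 4.87) and upstream at −5.96 kb (fold 4.27). Each was also found in both single-replicate lists, as were 12 of the 17 peaks. From 141 kb to 253 kb, the 3′ portion of the gene and the flank behind it, no list held a peak. One peak at an internal TSS, 6.79 kb from the 5′ end, had a fold of 2.16 and a q above 0.05.

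Meis3, known from hindbrain patterning in frogs, had the weakest promoter peak among the 6 members with one. The gene lies at chr7:16175090-16186504 on the plus strand. The peak was 0.865 kb wide over exon 1 with a fold of 5.31, higher than in 29.8% of the 20563 promoter peaks of the list. Replicate 1 had 2 peaks of 0.765 kb in all with a top fold of 5.17, and replicate 2 had 1 of 1.30 kb with a fold of 5.84. The 5 TSSs within 0.340 kb of the 5′ end had it within 1 kb, and the 3 TSSs further inside had no peak. A cluster of 3 distal peaks lay upstream at −18.6, −19.2 and −19.5 kb, with folds of 4.82, 4.66 and 3.60, and replicate 2 joined them into 1 peak of 1.76 kb. This cluster falls within the body of Slc8a2, a gene of a sodium-calcium exchanger. The strongest peak of the window, with a fold of 13.54, was at the start of Dhx34, which encodes an RNA helicase of nonsense-mediated decay.

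Among the PBX genes, Pbx2, which encodes a broadly expressed PBX protein, had the strongest and broadest promoter. It lies at chr17:34591266-34597400 on the plus strand and is 6.13 kb long. A peak of 2.88 kb with a fold of 22.27 covered its 5′ end, and a second of 1.46 kb with a fold of 12.51 had its summit in exon 1. Replicate 1 had folds of 17.42 and 8.31 for these 2 regions, and replicate 2 had 1 joined peak of 4.56 kb with a fold of 27.58. The first peak also overlaps Gpsm3, a modulator of G-protein signalling at 34589806 to 34591754 on the same strand, so this acetylation cannot be told apart between the genes. Of 5 Pbx2 TSSs, 4 had a peak. The other strong peaks of the window stood at the endothelial receptor gene Notch4 (folds 21.52 and 13.70), at Ppt2 and Prrt1 (18.87) and at Rnf5 and Agpat1 (14.86). The window held 1 distal peak, with a fold of 3.13.

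Pbx3, needed in mice for breathing at birth, had few peaks in a long gene. It lies at chr2:34171457-34373142 on the minus strand. Its promoter held a peak of 0.966 kb with a fold of 13.97, for which the single lists gave 9.86 and 18.94, and a peak of 1.26 kb over exon 1 with a fold of 8.07, for which they gave 7.40 and 9.01. Of 9 TSSs, 8 had a peak within 1 kb. One distal peak stood in intron 2 at 123 kb, with a fold of 3.98, and the fourth peak belonged by position to Mapkap1, a subunit gene of the mTOR complex that phosphorylates AKT (fold 11.89). All 4 peaks were found in both single-replicate lists. Behind the distal peak, 128 kb were free of peaks in all lists. This stretch ran from 124 to 252 kb, over the 3′ portion of the gene and the flank behind it to the window's end.

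Pbx4, best known in the mouse from the testis, lacked a peak over its entire length. The gene lies at chr8:69832491-69872292 on the plus strand, and 0 of its 9 TSSs had a peak within 1 kb in the replicated list, the pooled list or either single-replicate list. The stretch without a peak in any of the 4 lists ran from −23.2 kb to 63.1 kb from the 5′ end, 86.3 kb or 61.7% of the window, the largest such share among the 7 members. Its direct neighbours Lpar2, a receptor for lysophosphatidic acid, and Cilp2 also had no promoter peak. On the 5′ side the stretch ended at a weak peak of Gmip, with a fold of 3.55 and absent from the list of replicate 1, and on the 3′ side at a peak found in the list of replicate 2 without a partner in the replicated list. The strongest peaks of the window lay further out, with a fold of 25.36 at Ndufa13, a subunit gene of respiratory complex I, and its neighbours Yjefn3 and Tssk6, and a fold of 14.54 at Zfp866 and Atp13a1. The 5.73 kb of acetylated length around Pbx4 thus lay nearer to the TSSs of other genes. Without read counts, acetylation below the limit of peak calling could not be seen.

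Pknox1 had the promoter peak of highest fold among the 7 genes. It encodes a MEIS-related partner of PBX that is needed in the early mouse embryo, and lies at chr17:31564734-31607693 on the plus strand. The peak was 0.996 kb wide, with its summit at −0.445 kb and a fold of 26.07, higher than in 95.9% of the 20563 promoter peaks of the list. The single lists gave folds of 19.20 and 33.83 for it. A second peak of 1.14 kb in intron 1 had a fold of 13.55 and also overlaps the antisense transcript AC166172.4. Of 13 TSSs, 6 had a peak within 1 kb. From 6.23 to 48.4 kb, which takes in most of the gene, no list held a peak. The window's 2 distal peaks lay behind the gene near Cbs, an enzyme of cysteine synthesis, with folds of 3.49 and 3.98, and both were absent from the list of replicate 1. Wdr4 and Ndufv3, which share a start region, had a peak with a fold of 11.34.

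**Figure D3:**
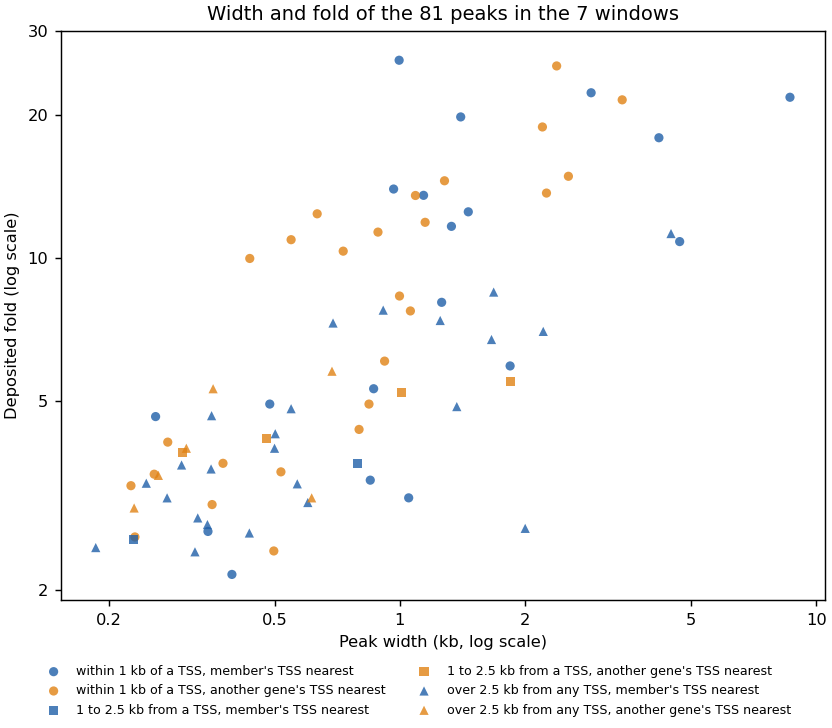
Width in kb against the authors' fold, both on log scales, for the 81 peaks of the replicated list, by distance to the nearest TSS of any gene (circles, squares, triangles) and by whether the nearest coding TSS is the member's (blue) or another gene's (orange). The Meis1 promoter peak stands farthest right at 8.65 kb and the Pknox1 promoter peak highest at a fold of 26.07, while the highest distal peak, in Meis1 intron 7, has a fold of 11.26.

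Over the 7 windows, 45 peaks were promoter peaks of some gene, 6 lay between 1 and 2.5 kb of a TSS, and 30 were distal. This was 55.6%, 7.41% and 37.0% of the 81 peaks, against 32.6%, 8.29% and 59.1% of all peaks. The windows were set around genes and hold TSSs by construction, so nothing about the members can be read from this share. The median fold of promoter peaks was 9.98 in the windows and 8.73 over all promoter peaks, and that of distal peaks was 3.83 in the windows and 3.89 over all distal peaks. The median GC content of the 300 bases around the summit was 57.3% for promoter peaks of the windows and 58.0% for all promoter peaks, and 46.5% for distal peaks of the windows and 47.0% for all distal peaks.

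Both single-replicate lists held 61 of the 81 peaks, or 75.3% (95% exact binomial interval 64.5 to 84.2%), against 73.0% of all peaks. The interval covers counting error over peaks only. Of the promoter peaks in the windows 86.7% were in both lists, against 87.5% of all promoter peaks, and of the distal peaks 63.3%, against 66.2% of all distal peaks. The repeatability of these peaks was near the background of the list. The misses were uneven. Replicate 2 alone held 2 or 3 peaks in every window but that of Pbx3, while replicate 1 alone held 1, at Meis1. Neither list held 1 peak at Meis1, 2 at Meis2, 1 at Pbx2 and 1 at Pbx4. This split was not computed over all peaks. Both lists held the strongest peak of each window.

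Each 300-base summit window was searched on both strands for 13 words. The MEIS word TGACAG stood in 15 of the 81 windows, or 18.5% (95% exact binomial interval 10.8 to 28.7%), against 21.3% of all peaks, so its share was near the background. In the distal peaks it stood in 11 of 30, or 36.7% (19.9 to 56.1%), against 23.3% of all distal peaks, which lies within that interval. By gene, 5 of 15 Meis1 peaks, 3 of 17 at Meis2, 2 of 4 at Pbx3, 4 of 7 in the Pbx4 window and 1 of 11 in the Pknox1 window held it. None of 9 peaks at Meis3 and none of 18 at Pbx2 did. None of the 4 peaks in the Pbx4 window that hold it was nearest to a Pbx4 TSS. None of the 5 promoters printed above held the word, against 19.2% of RefSeq promoters.

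The other words for these factors were rarer. The longer PBX-MEIS word TGATTGACA stood in 0 of 81 windows, which allows a share of up to 4.45% (upper bound of the exact binomial interval), against 0.271% of all peaks. TGATTGAT, a PBX-HOX word, stood in 2 windows, or 2.47% (0.300 to 8.64%), against 0.601%. TGATTNAT, which allows any base at N and so takes in TGATTGAT, stood in 5, or 6.17% (2.03 to 13.8%), against 2.96%. TGACAGNTG, which contains the MEIS word, stood in 1, or 1.23%, against 1.85%. For each of these the share of all peaks lay within the interval of the member windows.

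Words for other heart and promoter factors were counted in the same way. The GATA word AGATAA stood in 7.41% of the member windows and 12.9% of all peaks, the TEAD word GGAATG in 11.1% and 15.6%, the T-box word AGGTGTG in 3.70% and 5.45%, the MEF2 word TAAAAATA in 2.47% and 3.37%, and the AP-1 word TGANTCA in 4.94% and 7.99%. CCAAT stood in 25.9% of the member windows and 28.4% of all peaks. Shares were higher in the member windows for the ETS word CTTCCGG, at 8.64% (3.55 to 17.0%) against 3.54%, and for the GC box GGGCGG, at 24.7% (15.8 to 35.5%) against 15.2%. The intervals of both lie just above the share of all peaks. Within promoter peaks alone, which make up more of the member windows, the ETS word stood in 13.3% (5.05 to 26.8%) at the members against 7.43% over all promoter peaks, and the GC box in 40.0% (25.7 to 55.7%) against 36.1%, and both intervals hold the share of all promoter peaks. Of the printed promoters, Meis1 and Meis3 hold the ETS word, found in 8.86% of RefSeq promoters. Meis1, Meis2 and Pbx4 hold CCAAT, found in 37.4%, and Pbx2 holds the GC box, found in 35.7%.

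Relatives and partners of these factors were read from named lists, whose counts stand against the 56.8% of all protein-coding genes with a promoter peak. Promoter peaks stood at 6 of the 7 members and at 5 of 9 other TALE homeobox genes. Median acetylated lengths were 7.46 kb in the members and 2.72 kb in the other TALE genes. Lengths of members and lists include peaks nearer to other genes and are not corrected for window length. With only peaks nearest to their own coding TSS, the member median was 3.33 kb, and this was not computed for the lists. The count of the other TALE genes is near the background. Irx4, a ventricular factor, led with 13.6 kb, followed by Tgif1 with 10.2 kb, Irx5 with 8.60 kb and Irx3 with 5.61 kb. Tgif2, Mkx, Irx2 and Irx6 had no promoter peak in the replicated list, and Tgif2 had one in replicate 2. All 11 heart transcription factors had one, with a median of 26.9 kb. Gata4 had 48.1 kb, Tead1 42.5 kb, Mef2c 37.0 kb and Hand2 33.8 kb. The 28.4 kb of Meis1 were in the range of this list, from 8.16 to 48.1 kb. The 17.3 kb of Meis2 and the 22.4 kb of the Pbx2 window also were, though below the list's median. Of the Pbx2 length only 4.34 kb was nearest to its own coding TSS, and the Meis2 length was 5.72% of a long window.

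Most of the listed HOX genes, whose products pair with PBX, had an acetylated promoter. Of 13 early Hox genes, 11 had a promoter peak, against 56.8% of all protein-coding genes, and Hoxb1 and Hoxd1 had none. Among peaks above the list's median fold, 6 of the 13 had one, and the matching share of all genes was not computed. The median acetylated length of the 13 genes was 6.89 kb. Within 1 kb of the 5′ end of the gene itself 9 of the 13 had a peak, against 53.3% of all protein-coding genes. Hoxb2 and Hoxb3 had theirs at other TSSs. The 4 Hox genes with the most acetylated length, Hoxa2, Hoxa3, Hoxa4 and Hoxa5, had 8.33 kb each, since their windows share the same peaks, and the Hoxa3 promoter peak was absent from the list of each single replicate. The Hoxb5 promoter peak, with a fold of 2.25, was absent from the list of replicate 1, so 9 of 13 genes had a promoter peak in replicate 1 and 10 in replicate 2. Hoxd3 and Hoxd4 showed the same single peak of 0.617 kb, with a fold of 3.24. All 12 cofactor genes had a promoter peak, with a median of 9.12 kb. Among them the CREB coactivator gene Crtc3 had 26.6 kb, Pbxip1, whose product binds PBX proteins, 19.5 kb, and Crtc2 13.9 kb.

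Of the genes of the cell cycle and of hypoxia that mouse studies link to Meis1, all 10 had a promoter peak, against 56.8% of all protein-coding genes. Within 1 kb of the 5′ end of the gene itself 8 of the 10 had a peak, against 53.3%, and Cdkn1a and Hif1a had none there. Their median acetylated length was 8.95 kb. The hypoxia factor gene Epas1 had 49.2 kb and Hif1a 13.4 kb, and the cyclin genes Ccnd3 and Ccnd2 had 27.4 and 13.2 kb. For the inhibitors, the top promoter fold was 23.45 at Cdkn2c, 21.81 at Cdkn1a, 6.64 at Cdkn2b and 3.91 at Cdkn2a. The Cdkn2a peak was absent from the list of replicate 2. Since no animal lacked Meis1, no relation between Meis1 and these genes was measured.

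**Figure D4:**
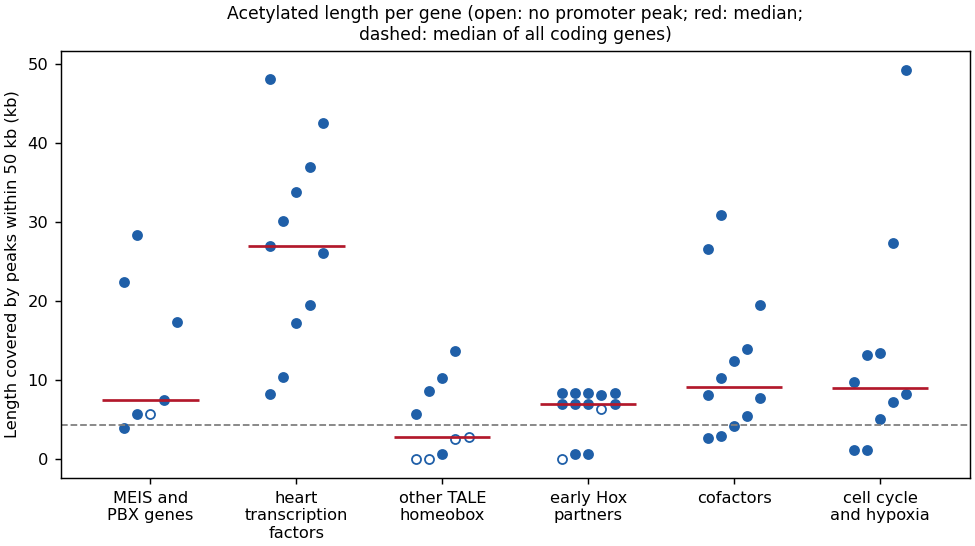
Length covered by H3K27ac peaks within 50 kb, in kb, per gene of the 7 MEIS and PBX genes and of 5 named lists, with open circles for genes that have no promoter peak, red lines for medians and the dashed line for the median of 4.32 kb over all coding genes. The MEIS and PBX genes spread from 3.88 to 28.4 kb around a median of 7.46 kb, against medians of 26.9 kb for heart transcription factors and 2.72 kb for other TALE genes. All lengths include peaks nearer to other genes and are not corrected for window length.

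The tissue label was checked with marker genes. Promoter peaks were present at 6 of 6 markers of heart muscle, 4 of 4 of endothelium, 4 of 4 of fibroblasts and 4 of 4 of pericytes and smooth muscle. In the replicated list they were absent at 4 of 4 markers each of macrophages, liver and blood, and 1 of 4 neuronal markers, Stmn2, had one, with a fold of 4.83. In the list of replicate 2, the macrophage marker Cd68 had a promoter peak as well. Of all protein-coding genes, 56.8% had a promoter peak in the replicated list. Markers without one could still have peaks within 50 kb. The median acetylated length was 6.44 kb for the macrophage markers, 0.855 kb for those of liver and 1.36 kb for those of blood. It reached 17.3 kb at Cd68, 11.8 kb at Csf1r and 11.3 kb at the liver marker Apoa1. Which cells carried the peaks at Meis1, Meis2 and the other members was not measured.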

How the data were processed

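H3K27ac was measured in 4 libraries of 1 group of mouse hearts, and 4 deposited peak lists were used. Per the text files deposited beside the libraries, the replicated and the pooled list came from alignments of both biological replicates, and the 2 others from 1 replicate each. Technical replicates were joined before peak calling, so no list holds a value per library. Positions are on mm10 per the labels. The aligner, the peak caller and their settings, like read numbers, are not named by any label or file header used, so depth is unknown and intervals cover counting error over peaks only.

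Each list holds the authors' score, fold, −log10 p and −log10 q per peak. The score is a deposited display score and was not used. The fold is the authors' ratio, read as enrichment over control from the column order of the format. The deposited −log10 p values reached down to 2.03 in the replicated list, and 1332 of its 63061 peaks had a deposited q-value above 0.05 (from −log10 q). The replicated list covered 66.9 Mb, that of replicate 1 54.4 Mb and that of replicate 2 81.1 Mb. Fold and q were used to describe and rank peaks within a list, and folds from several lists stand side by side as each list's own values. Reads of hybrid animals were placed on mm10, and what strain variants did to the peaks was not tested.

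Genes, TSSs and exons came from GENCODE M21, whose build matches: all peak ends lay inside the chromosome lengths. Summit sequences came from GRCm38. An overlap of 1 bp or more made a peak shared between lists. Counts, lengths and word matches were computed with Python 3.11.15, numpy 2.4.6 and scipy 1.17.1, drawn with matplotlib 3.10.9, and the code was checked on simulated data. No test was made, since there is 1 group. All columns with values were mapped, and 0 were left aside for lack of a sample. The members and lists were chosen with earlier results of these data known. Named were all members, protein-coding genes with a TSS within 1 kb of the 5 peaks of highest fold in a window or overlapping a member's promoter peak, in each list up to 4 genes with most acetylated length and those without a promoter peak, and for each member the top promoter peak, the widest peak and the 3 top distal peaks. Some genes that this rule or the lists would name are not reported here. Other genes and peaks that are named were chosen after their values were seen. Alternatives were the pooled and single-replicate lists, q and fold limits, other windows, TSS sets and overlaps. The nearest protein-coding TSS and the alternatives for the gene lists were added after the data were seen.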

Additional observations from a re-analysis of the deposited data

How the results depend on the processing

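The count of 6 members with a promoter peak was the same under all 9 alternatives, and each member kept its promoter call under the 6 for which it was computed per gene. The 81 peaks in the windows became 46 among peaks above the list's median fold, 52 with flanks of 20 kb, 34 in gene bodies, 26 when the nearest TSS of any gene had to be the member's and 45 with the nearest protein-coding TSS, and numbered 74 to 79 in the single-replicate lists. The median acetylated length of 7.46 kb became 3.90 kb with flanks of 20 kb, 16.6 kb with 100 kb, 2.37 kb in gene bodies, 2.23 kb with the nearest TSS and 3.33 kb with the nearest coding TSS, and 6.16 to 9.86 kb in the single lists. These follow from how much of the surroundings is counted. The share found in both single lists was 97.8% above the median fold and 50.6% when 50% of each peak had to overlap. The share with the MEIS word was 8.64% at 200 bases and 29.6% at 500, against 14.6% and 33.0% of all peaks, and 19.0 to 21.6% in the single lists. Of the early Hox genes, 6 had a promoter peak above the median fold. Per member, 39 of 56 lengths moved by less than 1 SD of the 2 replicates and 17 moved by more. The 39 include the single-replicate lists that set this SD, and 14 of them come from the pooled list and the q limit. The count of 39 therefore says little about stability. Apart from Pbx3 above the median fold, the 17 came from gene bodies or a nearest TSS. Pbx2 fell from 22.4 to 2.37 kb in the gene body, and Pknox1 from 7.46 to 0.996 kb with the nearest TSS of any gene. No paired analysis was possible because there is 1 group and no test. With 2 pools, no read counts and no depth, weak peaks and the missing Pbx4 peak are limited by the caller's threshold.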

Other observations

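Non-coding transcripts shared several of the members' peaks, and these genes were chosen after their values were seen. Inside Meis1, the antisense transcript Gm16141 starts in the 8.65 kb promoter peak (fold 21.79), and the antisense Gm16140 and the unclassified 2610001A08Rik had the intron 6 peak with a fold of 10.83 within 1 kb of their starts. At Meis2 the lincRNAs 2700033N17Rik and G630016G05Rik, with 5′ ends at −1.60 and −1.39 kb from that of Meis2, had the peak with a fold of 19.81 within 1 kb. In the Pknox1 window, AC166172.2 and the miRNA gene Gm24970 lay within 1 kb of the peak with a fold of 26.07. Gm24970 itself lay inside the other Pknox1 promoter peak, with a fold of 13.55. At Pbx3, the antisense transcript C79798, inside the gene, had no promoter peak. H3K27ac carries no strand, so the share of each transcript in these peaks was not measured.

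Some peaks of the other lists had no partner in the replicated list. The share over all peaks was not computed, so these counts have no background. Replicate 2 had 4 of 15 in the Meis1 window (top fold 4.28), 3 of 11 at Pknox1 (4.23) and 3 of 17 at Meis2 (3.68). It also had 1 of 7 at Meis3 (3.62) and 1 of 6 at Pbx4 (3.42). These folds lay below 5.44, the median fold of that list. The pooled list had 5 of 17 at Meis1 (top fold 3.57), 1 of 16 at Meis2 and 1 of 12 at Pknox1. Replicate 1 had 0 in each of the 7 windows.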
